A study of Mus musculus with 42 samples.

Results

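The p53 response genes described here are 10 mouse genes, namely Trp53, which encodes the transcription factor p53, and Cdkn1a, Mdm2, Ccng1, Btg2, Gadd45a, Gadd45b, Plk2, Sesn1 and Trp53inp1. They were chosen by name as textbook genes of the p53 response. In the RNA-seq files each was the row with that gene symbol, and in the 3′READS files each was the sum of all polyadenylation sites (PASs) inside the gene on its strand or within 4000 nt downstream, up to the next gene. All 10 genes were found in both assays, among 12347 genes listed in RNA-seq and 13510 genes with an assigned PAS. They held 64 of the 61341 assigned PAS clusters.

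The study asked how the 3′ ends and levels of mRNAs change under arsenic stress and during recovery. It used NIH3T3 cells, an immortalised mouse fibroblast line, and C2C12 cells, a mouse muscle precursor line grown as proliferating myoblasts (MB) or, after a change to low-serum medium, as differentiated myotubes (MT). Stressed cells (AS) received 250 µM sodium arsenite for 1 h, recovering cells (RC4, RC8, RC12 and RC24) were then washed and kept in normal medium for 4, 8, 12 or 24 h, and non-treated cells (NT) received nothing. The data were 38 libraries of 3′READS, which counts the 3′ ends of polyadenylated RNAs, and 4 RNA-seq libraries.

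Total RNA of NIH3T3 cells was sequenced for NT and AS (replicates 1, 2 and 4) and for RC4, RC8, RC12 and RC24 (replicate 4 alone). RNA made during a 1 h pulse of 50 µM 4-thiouridine (4sU) just before harvest and the unlabelled flow-through RNA (Ft) were sequenced once each for AS, RC4 and NT cells harvested at 0 h (NT0h) or 4 h (NT4h), and RNA-seq was made once for the same 4 conditions. RNA bound by the RNA-binding protein TIA1 was recovered with an antibody from cytoplasmic lysates of NT and AS cells and sequenced beside its input (replicates 1 and 2). Cytoplasmic RNA of MB and MT cells was sequenced once each for NT0h, NT4h, AS and RC4, and total RNA of unstressed MB and MT cells for replicates 2 and 3. The labels give the strain C57BL/6, no cell carried an engineered allele, and each group comes from 1 cell line, so its libraries differ by culture or preparation and not by animal. The labels do not say which libraries came from separate cultures, so p-values measure the spread between these libraries, which may in part be technical.

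Depth was 1048335 to 6974664 reads per 3′READS library and 17093529 to 25151556 reads per RNA-seq library. Levels are given as RPM, reads of the gene scaled to the listed reads of the library. The files list no entry under 5 reads, so a gene given as 0 had at most 4 reads at each site. Hmox1 and Atf3, known to respond to arsenite, were higher in AS than in NT in all 3 total RNA pairs. Myog, Myh3 and Ckm, markers of differentiated muscle, were at 0 in MB total RNA and NT total RNA of NIH3T3. Myog was at 1087 and 1211 RPM in MT. Acta1, a further such marker, was not limited to MT and had enough reads for an RC4 ratio in 4 experiments. All 5 listed markers of differentiated muscle rose in MT against MB by edgeR. The myoblast markers Myod1, Myf5 and Des did not fall: 2 of the 3 rose, and their median log2 change was 2.16. Ptprc, Epcam and Krt8, markers of blood and epithelial cells, were listed in no 3′READS library. In RNA-seq the RC4 library held 65 reads of Krt8, unlisted in NT4h, and 64 reads of the endothelial marker Cdh5 against 11 in NT4h, and their part in the results was not tested. Cdh5 had at most 16 reads in any 3′READS library, and Pecam1, another endothelial marker, at most 14 reads in any library. Cdkn2a, which encodes the MDM2 inhibitor ARF, was not listed in any library. The 3 replicate sets of total RNA stood apart from each other: deviations from the group mean correlated at 0.851, 0.85 and 0.778 within a replicate number. Values are therefore given per replicate. In bulk libraries fewer cells with a transcript and less RNA per cell cannot be told apart.

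p53 is held at a low level by MDM2, a ubiquitin ligase that marks it for degradation. On DNA damage and other stresses p53 accumulates and switches on target genes, among them the gene for MDM2 itself, which closes a feedback loop. Targets such as Cdkn1a halt the cell cycle, Gadd45 proteins and sestrins act in growth arrest and stress signalling, and Trp53inp1 promotes cell death. Several of these genes, Btg2, Gadd45a, Gadd45b and Plk2 among them, are also known as immediate-early or stress-inducible genes that other transcription factors can activate.

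The 3′ ends of these mRNAs are shown first, because 3′READS measures each gene through them. For every gene 1 PAS dominated or shared most reads with 1 other: the main site held 99.9% of all reads of Gadd45b, 99.7% of Gadd45a, 99.3% of Mdm2, 98.4% of Cdkn1a, 99.2% of Sesn1, 95.2% of Trp53, 90.1% of Btg2, 86.5% of Trp53inp1, 69.6% of Ccng1 and 55.7% of Plk2. The last 30 nt up to the main PAS are given for Cdkn1a, Mdm2, Gadd45a and Gadd45b, whose levels the stress results turn on, for both PASs of Btg2, whose shares are described below, and for Ccng1, whose main site lacks the signal. They run 5′ to 3′ on the gene's strand in mm9, are lower case, and have AATAAA, the polyadenylation signal, in capitals.
Cdkn1a, chr17:29237638-29237667, plus strand: ctggtgctcAATAAAtacttctcgatgatt
Mdm2, chr10:117125948-117125977, minus strand: aAATAAAtggtttattgaagaattgtgaaa
Gadd45a, chr6:66985094-66985123, minus strand: cattatctaaAATAAActggtatggaataa
Gadd45b, chr10:80394920-80394949, plus strand: agagacattccAATAAActcgttaagcctt
Btg2 distal, chr1:135971907-135971936, minus strand: ttgtttttAATAAAaatgtagcagatcgtg
Btg2 proximal, chr1:135973451-135973480, minus strand: cctgatcttaaataatactacattgcctaa
Ccng1 main, chr11:40564250-40564279, minus strand: aatataaagaatatgggatgaaaacataaa
All of these sites lie in the last exon, in the 3′UTR. The signal AATAAA was present at 5 of them and absent from the last 30 nt of the Btg2 proximal and the Ccng1 main site. Over all genes, AATAAA or ATTAAA was found in the last 30 nt of 76.02% of main PASs, and in 9 of these 10 genes.

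The 300 nt that end at the main PAS were searched on the sense strand for AU-rich letters known from unstable mRNAs. The pentamer ATTTA was in 39.87% of 12750 genes and in 5 of the 10 (Trp53, Mdm2, Gadd45a, Plk2 and Sesn1). TTTT, the kind of U-rich stretch TIA1 is known to bind, was in 84.55% of genes and in all of the 10 except Cdkn1a and Mdm2. Over the whole 3′UTR up to the main PAS, Mdm2 held 22 TTTT (16.7 per kb) and Cdkn1a 3 (2.26 per kb). The medians over all genes were 8 and 11.4 per kb. The 3′UTR up to the main PAS ranged from 120 nt for Ccng1 to 4420 nt for Trp53inp1, with a median of 707 nt over all genes.

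In untreated NIH3T3 cells these genes spanned a wide range. Because 3′READS gives 1 read per transcript end whatever the length, levels can be compared between genes. In NT total RNA Cdkn1a, the inhibitor of cyclin-dependent kinases also known as p21, had 352, 471 and 437 RPM in replicates 1, 2 and 4 and lay above 97.1% of 10886 genes. Gadd45b had 395, 262 and 119 RPM, and Mdm2 had 208, 34.9 and 204 RPM. Plk2, Ccng1 and Btg2 followed, with means of 114, 57.2 and 38.1 RPM. Trp53 itself had no listed read in replicate 1, 11.6 RPM in replicate 2 and 90.4 RPM in replicate 4, so its level differed between the replicate sets of the same condition. Gadd45a (26.9, 14.3 and 20.8 RPM), Sesn1 (17.3, 12.9 and 26.8 RPM) and Trp53inp1 (0, 3.66 and 23.4 RPM) were the lowest. All neighbours in this order had overlapping replicate values.

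After 1 h of AS, 3 of the 10 genes, all known as damage-inducible, rose in total RNA when libraries were compared within replicate pairs. Trp53 and the cell-cycle targets did not pass. Gadd45a, a growth-arrest protein, went from 26.9, 14.3 and 20.8 RPM in NT to 95.7, 53.6 and 38.2 RPM in AS (replicates 1, 2 and 4). Gadd45b, its relative, went from 395, 262 and 119 RPM to 718, 630 and 300 RPM. Btg2, an antiproliferative regulator of mRNA deadenylation, went from 60.9, 13.4 and 40.2 RPM to 101, 37.6 and 149 RPM. The groups did not overlap for Gadd45a but did for Gadd45b and Btg2, whose replicate sets started from different levels. The share of all genes without overlap is not given, so no conclusion is drawn from it.

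The fit without pairing called none of the 10 genes, and 0.0% of all 9114 genes tested (edgeR quasi-likelihood, Benjamini-Hochberg adjusted p under 0.05), with 19 genes at an unadjusted p under 0.05 and also 0 genes by DESeq2. It did not call any of 6 known arsenite-response genes either, of which the fit with a replicate block called 3. The labels do not name pairs, but same-numbered libraries deviated together, so a fit with a replicate block was set beside the fit without pairing. That fit called 29 genes, 0.318% of those tested, and 3 of them were Gadd45a, Gadd45b and Btg2, all higher. In that fit the log2 change was 1.64 ± 0.23 (SE, adjusted p = 0.0173) for Gadd45a, 1.15 ± 0.15 (adjusted p = 0.0118) for Gadd45b and 1.34 ± 0.23 (adjusted p = 0.0394) for Btg2, by edgeR with 3 pairs. The median change of the 10 genes was 0.45 against -0.02 over all genes tested. With the block, the 3 calls became 0 when replicate 1 or replicate 2 was left out and 2 when replicate 4 was left out.

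The other 7 genes did not pass in either fit. Mdm2 was 1.67, 2.45 and 1.04 times its NT level in replicates 1, 2 and 4, a blocked log2 change of 0.71 ± 0.21 (edgeR adjusted p = 0.389). Plk2, a stress-induced kinase of the polo family, was 1.25, 1.26 and 1.87 times its NT level (0.52 ± 0.17, edgeR adjusted p = 0.469). Sesn1, a sestrin of the oxidative stress and nutrient response, was at 0.422, 0.612 and 0.433 of its NT level, lower in 3 of 3 pairs (-1.02 ± 0.28, edgeR adjusted p = 0.325). Cdkn1a was 1.52, 1.13 and 1.27 times its NT level (0.38 ± 0.15, edgeR adjusted p = 0.64), and Ccng1, a cyclin G, stayed between 0.961 and 1.06 times. Trp53 and Trp53inp1 lacked a listed value in replicate 1. In replicates 2 and 4 Trp53 was at 0.319 and 0.896, and Trp53inp1 at 0.562 and 0.457, of their NT levels.

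The cytoplasmic input of the TIA1 experiment gave a second replicated comparison of AS with NT. The same 3 genes and Plk2 had the 4 largest fitted ratios there, and none passed in the fit without a block. Btg2 went from 20.6 and 25.0 RPM in NT to 52.4 and 79.7 RPM in AS, Gadd45a from 32.9 and 26.9 to 85.3 and 86.9 RPM, and Plk2 from 69.7 and 60.6 to 123.8 and 214.6 RPM. Gadd45b went from 157 and 248 to 369 and 634 RPM. For each of these 4 genes the AS values lay above both NT values. The share of all genes that did so is not given, so no conclusion is drawn from it. The fit called none of the 10 genes and 0.0% of 8534 genes (edgeR adjusted p of 1 for these 4 genes, 155 genes at an unadjusted p under 0.05, 24 genes but none of the 10 by DESeq2), and 0 of 6 known arsenite-response genes at a median log2 change of 4.57, with log2 changes of 1.45 ± 0.40 for Btg2, 1.45 ± 0.35 for Gadd45a, 1.22 ± 0.45 for Gadd45b and 1.30 ± 0.40 for Plk2. The remaining 6 genes had fold changes between 0.883 for Ccng1 and 1.38 for Mdm2. With a replicate block, a pairing the labels do not state, Btg2, Gadd45a, Gadd45b and Plk2 were called, beside 0.891% of 8534 genes.

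**Figure D1:**
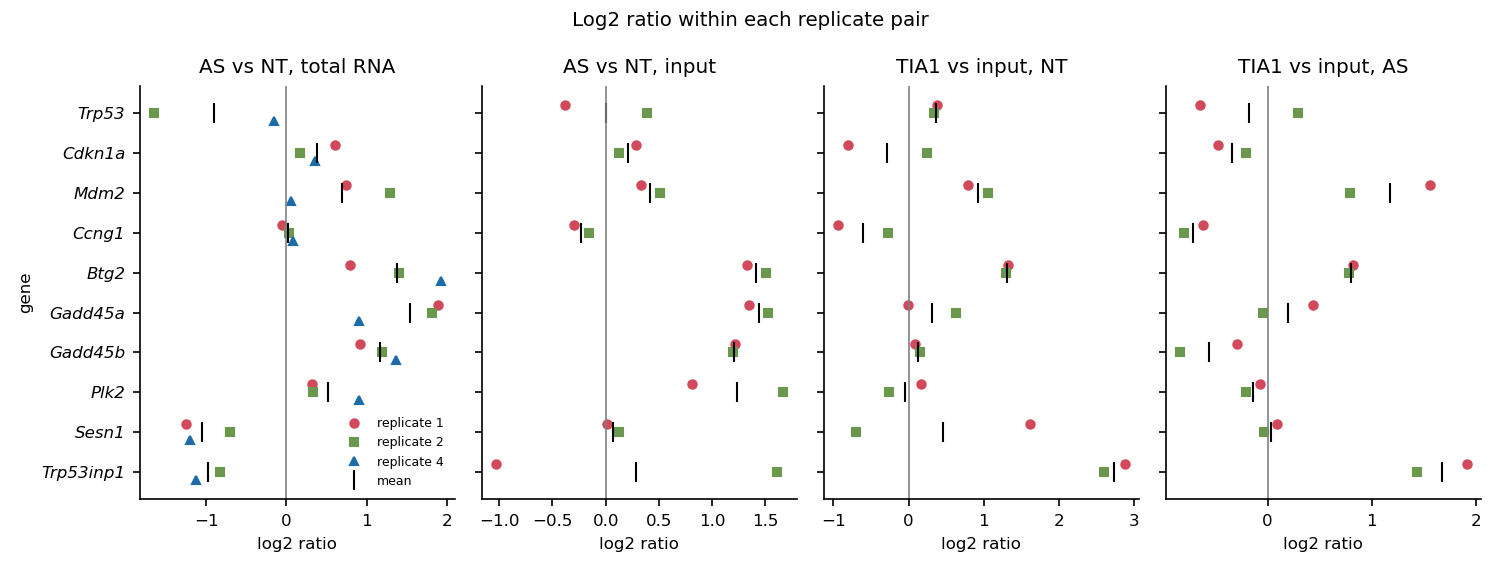
Log2 ratio of each gene within each replicate pair, for AS against NT in total RNA and in cytoplasmic input and for TIA1 against input in NT and AS cells. Circles, squares and triangles are replicates 1, 2 and 4 and bars their mean. A pair with a library in which the gene was not listed is left out. Gadd45a, Gadd45b, Btg2, Plk2, Mdm2 and Cdkn1a lie right of 0 in every AS against NT pair. Trp53inp1, Btg2 and Mdm2 lie right of 0 in every TIA1 pair.

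The early response could be followed across 6 experiments: total RNA (replicate 4), RNA-seq, 4sU and Ft RNA of NIH3T3 cells, and cytoplasmic RNA of MB and MT cells. Each has 1 library per condition, so these ratios have no replicate check and no test. They are given with exact 95% binomial (Clopper-Pearson) intervals, which cover counting error only. Each AS and RC4 library was set against the NT library of its own time label, and in total RNA against NT of replicate 4. The AS and recovery libraries of total RNA therefore share 1 NT library, which the paired fit also holds. Ratios are on a scale where the typical gene does not move (median-ratio factors). A gene was called higher or lower when it was at least 2-fold away.

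Btg2 was higher in AS in all 6 experiments, with a median of 3.83-fold and a range of 3.61 to 6.19. In 4sU RNA it went from 185 RPM in NT0h to 1027 RPM in AS, 6.11-fold (5.53 to 6.77), and in MB cytoplasm from 16.4 to 107 RPM. Gadd45b was at least 2-fold higher in 5 of 6, up to 4.04-fold in MB cytoplasm, and 1.76-fold (1.64 to 1.88) in RNA-seq. Plk2 was at least 2-fold higher in 5 of 6, in a narrow band from 2.71 to 2.98, and 1.87-fold (1.59 to 2.21) in total RNA. Gadd45a was at least 2-fold higher in 4 of 6. The exceptions for Gadd45a were total RNA, at 1.88-fold (1.17 to 3.08), and MT cytoplasm, at 1.18-fold (1.08 to 1.28), where it started from 359 RPM and not from 32.7 RPM as in MB.

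The other genes passed 2-fold in few experiments. Mdm2 and Cdkn1a were above their NT level in 5 of 6. Trp53, Ccng1 and Sesn1 were above it in 3, 2 and 3 of 6 and Trp53inp1 in 1 of 4. Mdm2 was past 2-fold in RNA-seq (2.62, 2.45 to 2.80) and not in the other 5 experiments, where it ran from 0.886 to 1.98. Cdkn1a stayed between 0.876 and 1.97 and Trp53 between 0.896 and 1.58, so neither passed 2-fold in any of the 6. Ccng1 ran from 0.647 to 1.32. Sesn1 was lower in total RNA (0.433) and MB cytoplasm (0.322, from 14 against 7 reads) and between 0.933 and 1.57 in the other 4, and Trp53inp1 was lower in total RNA (0.457) and MT cytoplasm (0.422).

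Counted per experiment, the genes at least 2-fold higher and lower in AS were 2 and 2 of 10 in total RNA, 4 and 0 of 10 in RNA-seq, 4 and 0 of 10 in 4sU, 4 and 0 of 9 in Ft, 4 and 1 of 9 in MB and 3 and 1 of 10 in MT cytoplasm. Over all genes with enough reads the share past 2-fold in either direction was 7.15% in total RNA, 5.93% in RNA-seq, 12.6% in 4sU, 8.88% in Ft, 7.7% in MB and 9.92% in MT. The labels of the NT0h and NT4h libraries differ only in harvest time, and culture or preparation may differ as well. Between these libraries 1 value in these genes passed 2-fold, Trp53inp1 in MB at 7 and 15 reads. In the other 4 experiments the largest untreated difference was 1.64-fold, Trp53 in 4sU.

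**Figure D2:**
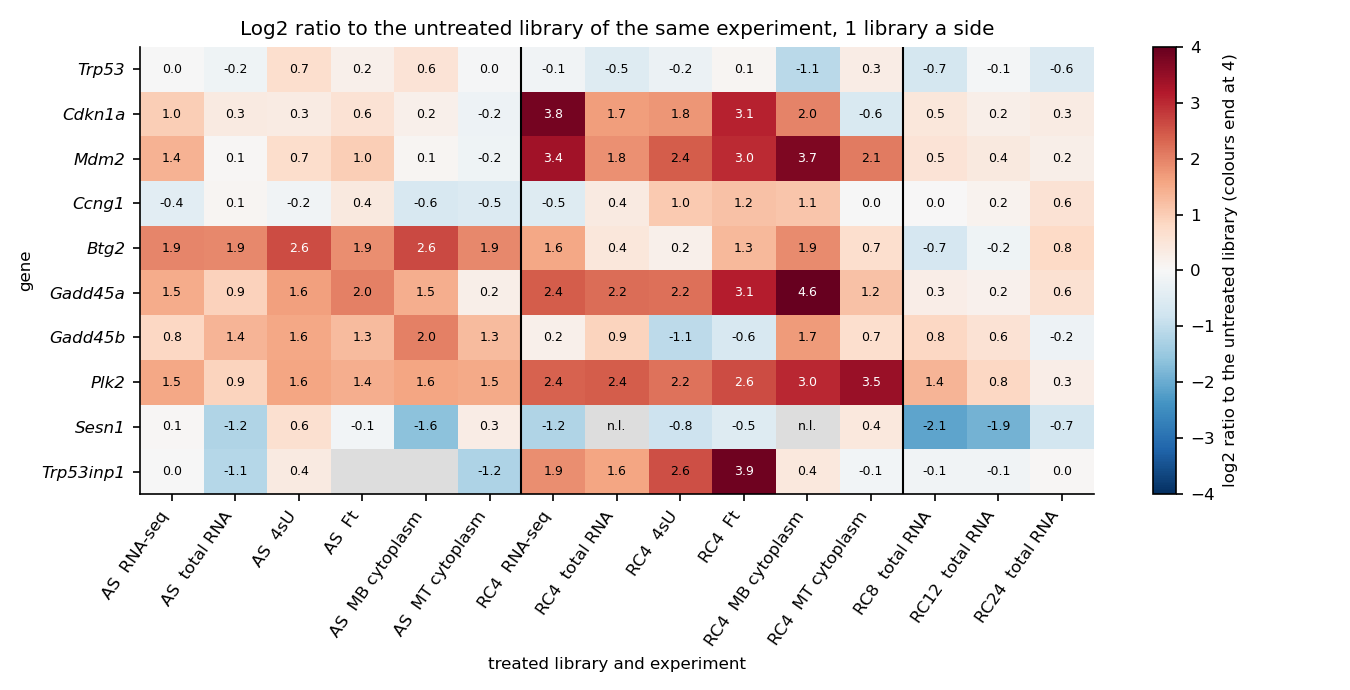
Log2 ratio to NT of each gene (rows) in AS and RC4 of the 6 experiments and in the later recovery times of total RNA (columns); red is higher and blue lower than NT, and the number in a cell is the log2 ratio. Btg2 is red in all 6 AS columns, Mdm2, Plk2 and Gadd45a are red in all 6 RC4 columns, and Trp53 is past 2-fold in MB at RC4 only, where it is lower. Cells marked n.l. had a library in which the gene was not listed, and empty grey cells had under 20 reads.

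After 4 h of recovery Mdm2, Plk2 and Gadd45a were at least 2-fold higher in all 6 experiments, and Cdkn1a in 5. Plk2 and Gadd45a had been high at 1 h as well. Btg2 and Gadd45b, high at 1 h, were at least 2-fold higher in 3 and 1 of the 6, and Trp53 was not at least 2-fold higher in any experiment. Sesn1 was lower or not listed in 3.

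Mdm2, the negative regulator of p53, was 3.58 to 13.2-fold higher. In total RNA it went from 204 RPM in NT to 614 RPM in RC4, in 4sU from 421 to 1768 RPM, in Ft from 65.1 to 377 RPM, in MB cytoplasm from 75.3 to 787 RPM and in MT cytoplasm from 137 to 518 RPM. MB gave 13.2-fold (11.1 to 15.9) against NT4h, which for Mdm2 was at 0.567 of NT0h, and RNA-seq gave 10.3-fold (9.66 to 10.9). In none of the 6 did the counting interval reach 2-fold or less.

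Cdkn1a had a median of 3.69-fold at RC4 but split by cell state. In total RNA it went from 437 to 1179 RPM, 3.21-fold (2.95 to 3.51), in RNA-seq 14.1-fold (12.3 to 16.3) and in MB cytoplasm from 339 to 1069 RPM, 3.99-fold (3.65 to 4.38). In MT cytoplasm it went the other way, from 2794 RPM in NT4h to 1636 RPM in RC4, 0.651-fold (0.627 to 0.675). The MT level after recovery was still above that of recovering MB cells. In newly made 4sU RNA the ratio was 3.41 (3.231 to 3.601) and in the unlabelled Ft RNA of the same cells 8.46 (7.86 to 9.13). The difference between the fractions was not tested, and in 4sU the untreated NT4h library was at 0.632 of NT0h for Cdkn1a.

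Plk2 had a median of 5.68-fold (4.49 to 11.1), with the highest ratio in MT cytoplasm, where it went from 77.5 to 772 RPM. Gadd45a had a median of 5.03-fold, from 2.28 in MT cytoplasm to 23.4 (16.7 to 35.0) in MB cytoplasm, where it went from 18.5 to 348 RPM and where NT4h was at 0.587 of NT0h. Its ratio at RC4 was above that in AS in all 6 experiments, 4.69 against 1.88 in total RNA, 8.86 against 4.08 in Ft and 5.41 against 2.79 in RNA-seq. In RPM, the scale of library totals, RNA-seq gave 45.1 at RC4 and 44.4 in AS.

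Trp53inp1, a promoter of p53-dependent cell death and autophagy, was at least 2-fold higher in the 4 NIH3T3 experiments and not in C2C12. It went from 17.9 to 85.1 RPM in 4sU, 6.02-fold (4.69 to 7.92), and from 23.4 to 58.9 RPM in total RNA, 2.96-fold (2.03 to 4.51). The ratios in MB and MT cytoplasm were 1.33 (0.653 to 2.82) and 0.930 (0.552 to 1.55), on 15 to 36 reads per library. Ccng1 was at least 2-fold higher in 4sU, Ft and MB cytoplasm (2.06, 2.26 and 2.18) and at 0.701 (0.624 to 0.787) in RNA-seq, which counts reads over the coding sequence and not at the 3′ end.

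Gadd45b, at RC4, was at 0.482 (0.438 to 0.528) in 4sU and 3.27 (2.56 to 4.26) in MB cytoplasm, with the other 4 between 0.646 and 1.86. Btg2 was 3.68-fold (2.56 to 5.54) in MB cytoplasm, 2.94-fold in RNA-seq and 2.46-fold in Ft, and 1.16 to 1.59-fold elsewhere. Trp53 ran from 0.469 (0.291 to 0.726) in MB cytoplasm to 1.23 in MT cytoplasm. Sesn1 was at 0.431 (0.355 to 0.519) in RNA-seq, and in total RNA and MB cytoplasm it was not listed, against 40 and 24 reads in NT. With 4 reads in place of the missing value those ratios would be 0.105 and 0.185.

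The genes at least 2-fold higher and lower at RC4 were 5 and 1 of 10 in total RNA, 6 and 1 in RNA-seq, 6 and 1 in 4sU, 7 and 0 in Ft, 7 and 2 in MB and 3 and 0 in MT cytoplasm. The recovery changed many genes: 21.1% of all genes were past 2-fold in total RNA, 32.3% in RNA-seq, 27.6% in 4sU, 29.4% in Ft, 25.8% in MB and 18.0% in MT. Scaling to the library total moved every log2 ratio at RC4 by -0.81 in RNA-seq, -0.45 in Ft, -0.35 in 4sU, -0.34 in MB, -0.25 in total RNA and -0.15 in MT. Of the ratios of these genes, 3 changed sign with it, all of them close to 1: Btg2 in 4sU, Trp53 in Ft and Gadd45b in RNA-seq. Ccng1 was then no longer 2-fold higher in any experiment (log2 0.69, 0.73 and 0.78 in 4sU, Ft and MB), and neither was Btg2 in RNA-seq (0.75) and Ft (0.85). Ccng1 in RNA-seq (-1.32), Gadd45b in Ft (-1.08) and Sesn1 in 4sU (-1.17) became at least 2-fold lower.

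The time course in total RNA of replicate 4 placed these changes between 1 and 24 h. Mdm2 had 204, 207, 614, 315, 275 and 249 RPM in NT, AS, RC4, RC8, RC12 and RC24. Plk2 had 171, 312, 764, 470, 318 and 210 RPM, and Cdkn1a 437, 543, 1179, 637, 534 and 566 RPM. All 3 peaked at RC4 in this series, and of the 10 genes only Plk2 was still 2-fold higher at RC8, at 2.59-fold (2.25 to 3.00).

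Btg2 and Gadd45b peaked in AS in the same series. Btg2 had 40.2, 149, 46.1, 26.4, 36.8 and 71.5 RPM and Gadd45b 119, 300, 185, 225, 182 and 106 RPM in the same order. Sesn1 ran the other way, with 26.8, 11.03, 0, 6.29, 7.36 and 16.2 RPM, and was at 0.229 (0.099 to 0.450) at RC8 and 0.272 (0.130 to 0.505) at RC12. Trp53 had 90.4, 78.9, 53.04, 58.5, 88.3 and 63.0 RPM and Ccng1 85.7, 88.3, 92.8, 92.5, 99.1 and 133 RPM. Over all genes the share past 2-fold was 10.6% at RC8, 6.63% at RC12 and 4.86% at RC24. The genes past it were Plk2 and Sesn1 at RC8, Sesn1 at RC12 and none of the 10 at RC24. With all 3 NT libraries as control in place of replicate 4, the log2 ratio in AS was -0.01 and not 1.37 for Gadd45b. For Trp53inp1 it was 0.82 and not -1.13. Under that control 5, 5 and 7 of the 10 genes were past 2-fold at RC8, RC12 and RC24. Over all genes, 1572 were then higher and 2601 lower of 9856 at RC8. The counts were 1423 and 2511 of 9864 at RC12 and 1413 and 2876 of 9764 at RC24.

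**Figure D3:**
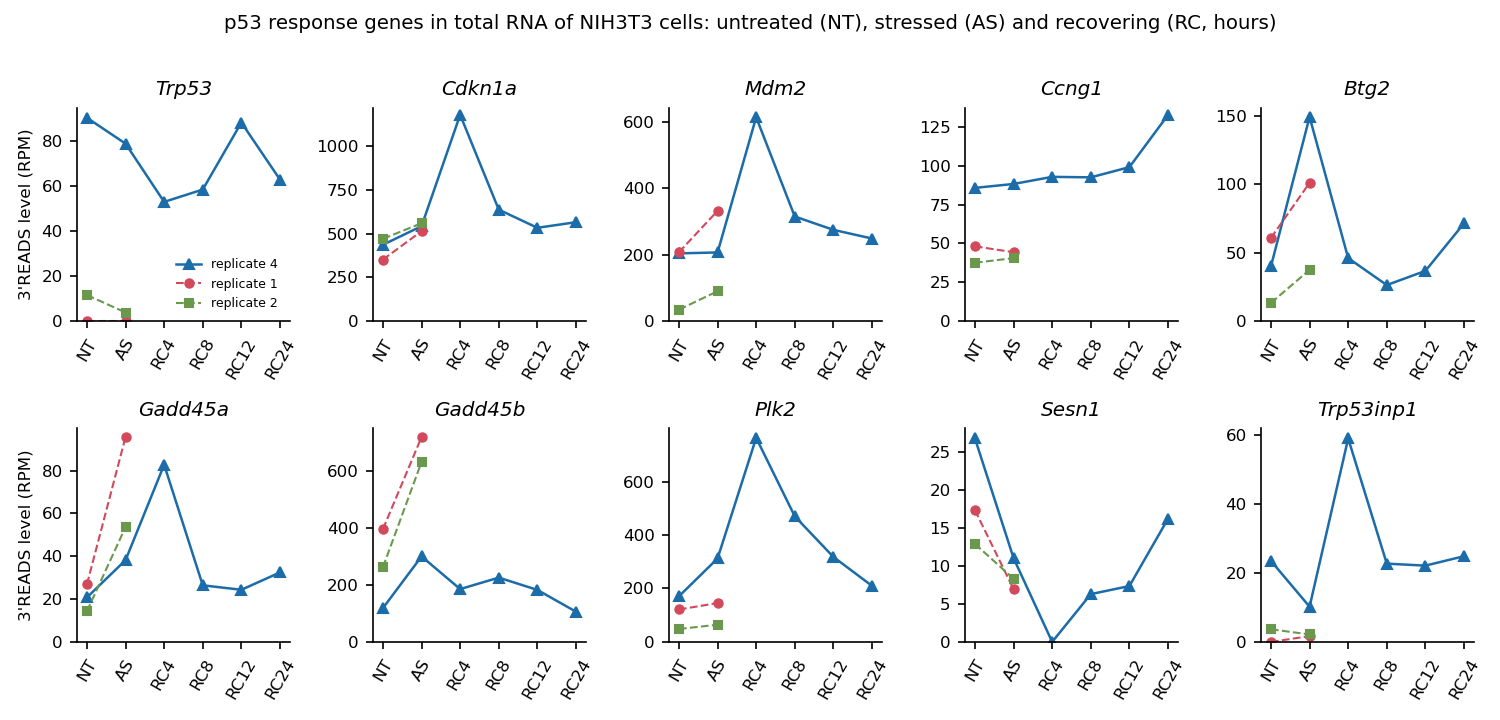
Level in RPM (vertical axis) of the 10 genes in total RNA of NIH3T3 cells for NT, AS and RC4 to RC24 (horizontal axis). Solid lines join the single libraries of replicate 4, and dashed lines join NT and AS of replicates 1 and 2. A point at 0 is a gene not listed. In replicate 4 Mdm2, Cdkn1a and Plk2 are highest at RC4, with 614, 1179 and 764 RPM, Btg2 and Gadd45b are highest in AS, and Sesn1 is lowest at RC4.

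Other genes of the p53 network were counted from lists of 25 further p53 targets, 13 regulators of p53 and 9 paralogs of the genes above. In AS, with the replicate block, 0 of 15 further targets tested in total RNA passed, and in input without a block 0 of 14 targets and 0 of 4 paralogs did. Gadd45g, the third Gadd45 gene, was the 1 paralog of 5 tested that passed in total RNA with the replicate block. Its log2 change was 1.81 ± 0.20 (edgeR adjusted p = 0.003). No regulator of 10 tested passed in total RNA or input. At RC4 the further targets at least 2-fold higher and lower were 10 and 4 of 22 in RNA-seq, 6 and 1 of 19 in 4sU, 7 and 3 of 18 in Ft, 4 and 2 of 15 in total RNA, 7 and 1 of 15 in MB and 6 and 4 of 18 in MT cytoplasm. Their median log2 ratio lay between 0.34 and 0.69 in 5 experiments and at 0.00 in MT.

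The members of these lists that were at least 2-fold higher in 4 or more of the 6 experiments, with the largest medians, were Gdf15, a stress-induced cytokine (4 of 4, 27.1-fold in MB, 84.1-fold in MT and, with the unlisted NT library taken as 4 reads, at least 5.45-fold in 4sU and 8.02-fold in Ft), Pmaip1, the BH3-only death gene Noxa (5 of 5, median 6.40), Plk3 (6 of 6, 5.24), Sesn2 (6 of 6, 4.74), Eda2r (5 of 6, 4.47) and Ccng2 (5 of 6, 4.24). Those lower were Fas, a death receptor (4 of 4, median 0.311), the kinase gene Atm (4 of 6, 0.478) and Trp53bp1 (4 of 6, 0.490). Bax (4 of 6, 2.30) and Gadd45g (4 of 6, 3.57) met the same count below these 6. Mdm4, the partner of Mdm2, was past 2-fold in 0 of 6, with a range of 0.766 to 1.98.

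Newly made and pre-existing RNA were compared in the same cells by log2(Ft/4sU), which is low for transcripts that are young or turn over fast. The median of the measured p53 response genes lay below that of all genes in each condition. In NT0h cells the median over the 9 measured genes was -1.28 against -0.09 over 7661 genes. The corresponding medians were -0.87 and -0.14 in NT4h, -0.88 and 0.04 in AS and -0.69 and -0.23 in RC4. Genes below the median of all genes were 7 of 9 in NT0h, 6 of 9 in NT4h, 7 of 9 in AS and 6 of 10 in RC4. By definition a median has as many genes below it as above it, so these counts were not far from the share over all genes. With 1 library per fraction and condition there is no test.

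Mdm2 was among the lowest of all genes in each condition, at -2.62, -2.69, -2.18 and -2.23 in NT0h, NT4h, AS and RC4, with 1.4, 1.2, 2.5 and 2.3% of genes below it. Plk2 (-1.97, -1.78, -1.96 and -1.44) and Gadd45a (-1.89, -1.97, -1.35 and -1.10) lay low as well. Btg2 was lowest in AS, at -2.31, and at -1.69, -1.91 and -0.93 in NT0h, NT4h and RC4. Trp53 (1.24, 0.56, 0.92 and 0.77) and Ccng1 (0.38, 0.56, 1.09 and 0.60) were above the median of all genes in every condition.

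Cdkn1a and Sesn1 lay on either side of the median of all genes, and Cdkn1a moved furthest. Its log2(Ft/4sU) was -1.28 and -0.87 in NT0h and NT4h, -0.88 in AS and 0.34 in RC4, so that 15.1, 25.1, 19.3 and 70.9% of genes lay below it. With an adjustment for the uridine content of the transcripts the values were -1.48, -1.14, -1.09 and 0.01, RC4 again the highest. Trp53inp1 had enough reads in RC4 alone, where it was at -2.01.

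TIA1, a protein of stress granules, was tested for binding to these transcripts by comparing the RIP libraries with their inputs. In NT cells Trp53inp1 and Btg2 were enriched, and in AS cells Mdm2 was. Trp53inp1 had 73.3 and 14.2 RPM in the NT RIP (replicates 1 and 2) against 8.51 and 1.98 RPM in input, a log2 ratio of 2.81 ± 0.64 (edgeR with the culture as block, adjusted p = 0.00961). Its input value in replicate 2 lay close to the smallest count the files list, so this ratio rests on few input reads. Btg2 had 59.8 and 66.4 RPM against 20.6 and 25.0 RPM (1.31 ± 0.34, edgeR adjusted p = 0.0193). Mdm2 had 144 and 250 RPM against 71.7 and 111 RPM, a ratio of 0.92 ± 0.31 that missed the threshold (edgeR adjusted p = 0.0574). The 2 genes called compare with 18.6% of 9592 genes called in NT cells. With 1 pair left out the Btg2 call was lost whichever it was, and that of Trp53inp1 without NT replicate 1.

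In AS cells Mdm2 had 326 and 358 RPM in the RIP against 91.5 and 177 RPM in input (1.18 ± 0.31, edgeR adjusted p = 0.0235), and it was 1 of 10 genes called against 16.7% of all genes. The Mdm2 call was lost without AS replicate 1 (log2 ratio 0.80) or AS replicate 2 (1.58), and without the block none of the 10 passed in either condition. Trp53inp1 (1.71 ± 0.62, edgeR adjusted p = 0.0809) and Btg2 (0.80 ± 0.33, edgeR adjusted p = 0.128) lay on the same side without passing. The enrichment itself was compared between AS and NT by an interaction term. None of the 10 genes passed and 0.0104% of all genes did, 1 gene, with 382 genes at an unadjusted p under 0.05 and 19 genes by DESeq2. For Mdm2 the difference was 0.25 with a 95% interval from -0.61 to 1.11, for Btg2 -0.51 (-1.43 to 0.42) and for Trp53inp1 -1.10 (-2.81 to 0.61), intervals wide enough to hold no difference or a 2-fold one. Cdkn1a, Plk2, Gadd45a, Gadd45b, Ccng1, Trp53 and Sesn1 passed in neither condition. Of the related lists, in NT cells 2 of 17 further targets (Zmat3 and Fbxw7), 2 of 5 paralogs (Btg1 and Cdkn1b) and 1 of 11 regulators (Mdm4) were enriched and 1 regulator (Trp53bp1) was depleted. In AS cells 2 targets (Apaf1 and Zmat3) and 1 regulator (Mdm4) were enriched and 1 paralog (Gadd45g) was depleted. Mdm4 was enriched in NT (3.01 ± 0.44, edgeR adjusted p = 0.000886) and in AS cells (2.06 ± 0.45, edgeR adjusted p = 0.00843). Scaling by TMM moved the median of all genes in AS cells from 0.02 to 0.15 and left the counts of these 10 genes called at 2 in NT and 1 in AS cells.

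By edgeR, differentiation of C2C12 cells changed most of all genes tested, and most of the 10 with them. In MT against MB total RNA 6 rose and 2 fell, 8 of 10, beside 61.9% of 10105 genes. Gadd45a and Cdkn1a rose the most of the 10, and in MT both were among the most abundant mRNAs. Ccng1 and Trp53 fell.

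Gadd45a had 15.4 and 23.2 RPM in MB and 1321 and 1309 RPM in MT (replicates 2 and 3), a log2 change of 6.23 ± 0.14 (edgeR adjusted p = 1.27e-14). Cdkn1a had 400.2 and 409 RPM in MB and 3619 and 3348 RPM in MT (3.27 ± 0.09, edgeR adjusted p = 1.37e-13). By level Cdkn1a ranked 13 of 10961 genes in MT and 342 of 10576 in MB, and Gadd45a ranked 60 and 6130. Plk2 rose from 103 and 117 to 246 and 216 RPM (1.23 ± 0.11) and Trp53inp1 from 19.4 and 19.0 to 38.4 and 30.9 RPM (1.01 ± 0.19). Gadd45b and Btg2 rose less, by 0.64 ± 0.15 and 0.51 ± 0.18 (edgeR adjusted p = 0.00146 and 0.0204). The Btg2 call was lost in DESeq2 (adjusted p = 0.168), without MT replicate 2 and without MB replicate 3.

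Ccng1 fell from 115 and 141 RPM in MB to 23.1 and 24.2 RPM in MT, -2.27 ± 0.15 (edgeR adjusted p = 2.45e-09). Trp53 fell from 58.9 and 61.9 to 28.5 and 27.5 RPM (-0.94 ± 0.15, edgeR adjusted p = 4.78e-05). Mdm2 (119.9 and 197 RPM in MB, 115 and 120.3 RPM in MT) and Sesn1 (46.55 and 34.5 against 28.0 and 29.6 RPM) did not pass, at -0.28 ± 0.17 and -0.32 ± 0.18 (edgeR adjusted p = 0.163 and 0.136). Mdm2 depended on its MB libraries, with -0.59 and a call without MB replicate 2 and 0.12 without MB replicate 3, and Sesn1 was called without MB replicate 3 (-0.54). Of the further p53 targets 9 rose and 5 fell of 19 tested, of the regulators 2 rose and 4 fell of 11, and of the paralogs 6 rose of 7.

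**Figure D4:**
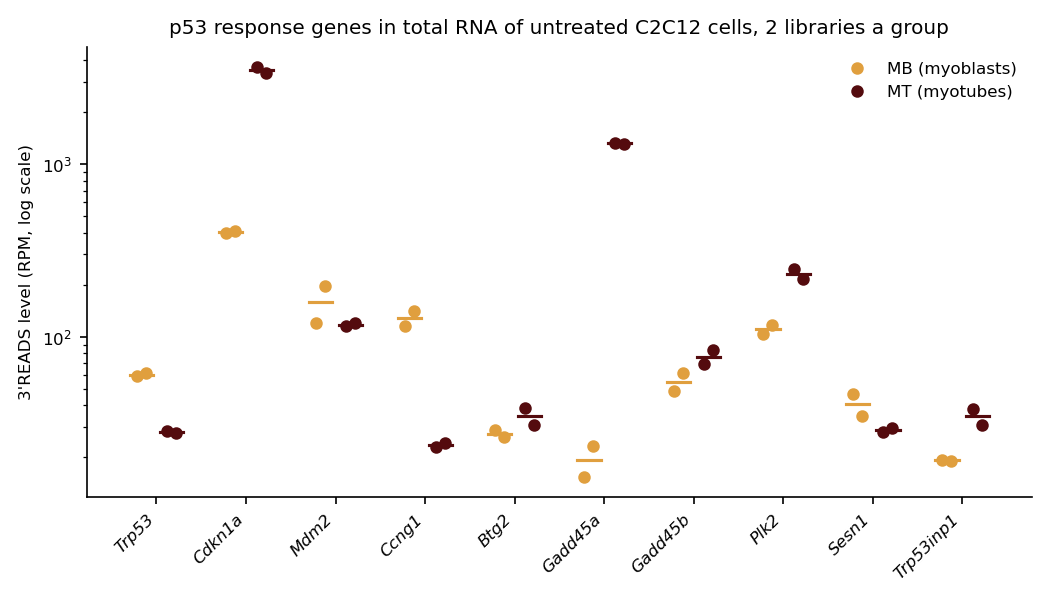
Level in RPM on a log axis of the 10 genes in total RNA of MB and MT cells; points are the libraries of replicates 2 and 3. Gadd45a (15.4 and 23.2 against 1321 and 1309 RPM) and Cdkn1a are far higher in MT, Ccng1 and Trp53 are lower, and the MB and MT points of Mdm2 and Sesn1 lie close together.

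The high unstressed level of Cdkn1a and Gadd45a in MT returned in the stress experiment. Cytoplasmic RNA of NT0h and NT4h cells held 2798 and 2794 RPM of Cdkn1a in MT and 311 and 339 RPM in MB. For Gadd45a it held 359 and 398 RPM in MT and 32.7 and 18.5 RPM in MB. The Plk2 rise did not return, with 98.2 and 77.1 RPM in MB and 74.6 and 77.5 RPM in MT. Ccng1 was again lower in MT, by less, with 228 and 183 RPM in MB and 129 and 103 RPM in MT. Trp53 was again lower in MT, and Trp53inp1, Gadd45b and Btg2 were again higher. At RC4 Gadd45a reached 348 RPM in MB and 815 RPM in MT. Mdm2 reached 787 RPM in MB and 518 RPM in MT from 75.3 and 137 RPM. For both genes the smaller ratio was in the cells that started higher at NT4h. For Mdm2 the gap was smaller at NT0h, with 137 RPM in MB and 154 RPM in MT. In total RNA Mdm2 was higher in MB, with means of 158 and 117 RPM. Plk2 started level at NT4h, at 77.1 RPM in MB and 77.5 RPM in MT, and rose 8.09 and 11.1-fold.

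Shares of proximal and distal isoforms were compared for genes with 2 main PASs in the last exon. In total RNA the test compares the reads of a pair of libraries, not the conditions. Of 13 tests in these genes 1 passed: the distal share of Btg2 in replicate 2 was 92.4% in AS and 78.6% in NT (Fisher's exact test, adjusted p = 0.0161). This compares with 7.8% of 3974 genes called in replicate 2, 6.08% of 3208 in replicate 1 and 0.259% of 1927 in replicate 4. In replicate 4 the Btg2 shares were 92.6% and 85.0% (Fisher's exact test, adjusted p = 0.801), and in replicate 1, with 5 proximal reads in NT, 95.3% and 97.1%.

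The Btg2 isoforms differ by an alternative UTR of 1544 nt, and their PASs are shown above. Without a test, the distal share was higher in AS than in NT0h in the other 4 3′READS experiments: 94.4% (Wilson 95% interval 93.4 to 95.3) against 88.4% (85.2 to 91.0) in 4sU, 88.2% (85.2 to 90.6) against 68.5% (61.1 to 75.0) in Ft, 83.9% (79.1 to 87.8) against 70.4% (51.5 to 84.1) in MB and 88.5% (85.4 to 91.1) against 75.8% (66.5 to 83.1) in MT cytoplasm. The NT4h libraries had 93.3%, 85.5%, 77.8% and 76.5% in the same order, so in 4sU and Ft the 2 untreated libraries differed nearly as much. The log2 change of the distal to proximal ratio in AS was 1.16, 1.78, 1.13 and 1.31 for Btg2 in the same order. Its median over all genes was -0.33, -0.18, -0.12 and -0.14. At RC4 the distal share of Btg2 in Ft was 72.6% (67.1 to 77.5). Cytoplasmic input did not show the difference: the proximal site was listed in 1 of its 4 libraries, with shares of 100% in both NT and of 96.6% and 100% in the AS replicates.

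The distal share of Plk2 at RC4 was lower than in both untreated libraries in each of 4sU (45.8% against 54.1 and 54.7%), Ft (41.5% against 55.1 and 50.7%), MB (42.0% against 50.0 and 54.0%) and MT cytoplasm (34.9% against 55.4 and 58.2%). In total RNA of replicate 4 it was 38.0% at RC4 and 43.1% in NT. Distal sites lost share in the typical gene as well. The log2 change of the distal to proximal ratio at RC4 was -0.51, -0.53, -0.70 and -1.38 for Plk2 in 4sU, Ft, MB and MT. Its median over all genes was -0.42, -0.50, -0.48 and -0.32, so in 4sU and Ft Plk2 lay close to the typical gene. The Plk2 share in NT total RNA was 17.1, 22.4 and 43.1% in replicates 1, 2 and 4, a wider range than that within any stress experiment. The distal share of Ccng1 likewise was 17.1, 4.88 and 76.4% in NT of replicates 1, 2 and 4, and close to these in AS of the same replicate, 14.5, 4.57 and 68.4%.

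**Figure D5:**
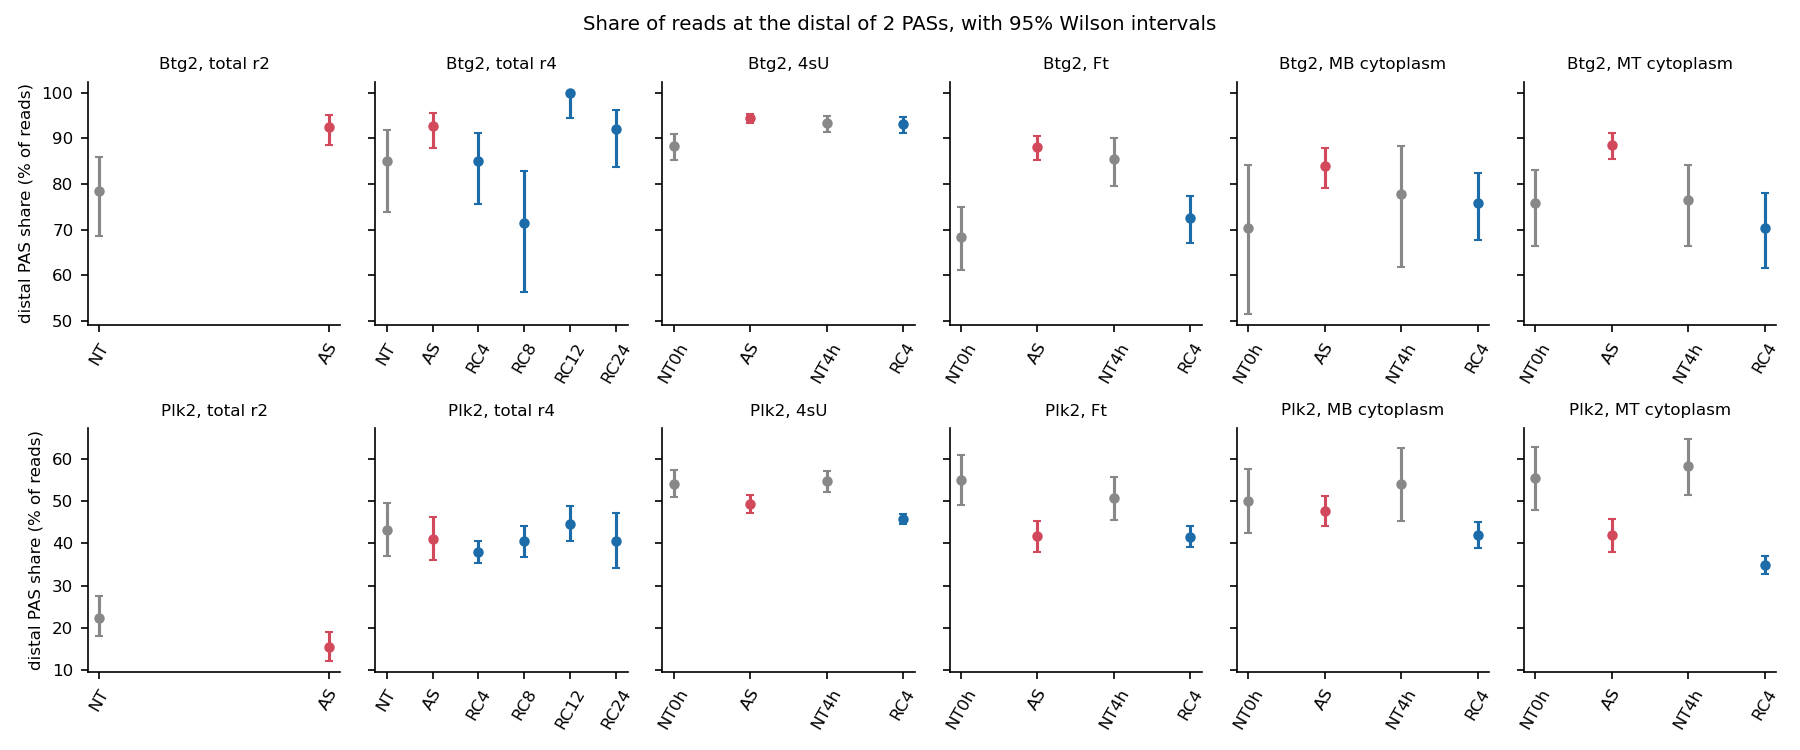
Distal share in percent of the reads of both main PASs (vertical axis) for Btg2 (upper row) and Plk2 (lower row), by library, with Wilson 95% intervals as bars. At RC12 in total RNA no proximal read of Btg2 was listed, which may hide up to 4 reads. Btg2 is higher in AS than in NT0h in 4sU, Ft, MB and MT RNA, and Plk2 is lower at RC4 than in both untreated libraries of these 4 experiments.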

How the data were processed

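For 3′READS the authors removed adapters (Cutadapt), aligned to mm9 (bowtie2, local mode), kept reads that carried Ts absent from the genome, merged nearby PASs and deposited raw read counts per PAS. For RNA-seq the authors deposited raw counts of coding-sequence reads per gene (STAR). PASs within 24 nt were joined across libraries and assigned to protein-coding genes of GENCODE vM1 (846 ambiguous clusters left out). RNA-seq rows whose symbol a spreadsheet had turned into a date were left out (at most 0.257% of reads).

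Counts per gene were tested with edgeR 4.0.16 (quasi-likelihood, median-ratio factors, filterByExpr) in R 4.3.3, with DESeq2 1.42.0 as alternative, Benjamini-Hochberg adjustment over all genes and a threshold of 0.05. TIA1 fits had the culture as block, since a RIP and its input share a lysate. Total RNA replicate numbers were taken to pair the libraries, because each pair's deviations correlated (0.851, 0.85 and 0.778). Single-library ratios needed 20 reads in both libraries together, with 0.5 added to each count. Isoforms were tested with Fisher's exact test (scipy 1.17.1) on genes with over 5 reads per isoform, with a change of over 5 percentage points. Sequences came from the mm9 genome. On simulated data, 99.0 to 100.0% of 200 genes (8330 to 9878 genes in all) changed 4-fold were recovered in the edgeR fits and 99.0% in the Fisher test on 2000 genes. The AS fits without a block nevertheless called 0 of 6 arsenite genes in total RNA and 0 of 6 in input, so a gene they did not call may still have changed.

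All 10 genes are named whatever their values. Others named passed the AS test, or were at least 2-fold changed one way in 4 or more of the 6 RC4 comparisons (at most 6 a direction). Cdh5, Bax, Gadd45g and Mdm4 at RC4, and the list genes named with TIA1, were chosen after their values were seen. Further lists held arsenite genes and markers of cell types as checks. The members and lists were chosen with earlier results of these data known. Alternatives were other scalings, filters, controls, folds, tools, blocks and left-out libraries.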

Additional observations from a re-analysis of the deposited data

Results flagged for a closer look

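The changes of 5 genes had opposite signs between cell states or between stress and recovery. With 1 library per group these differences were not tested, and their causes were not tested. Under the same contrast in MB and MT, Cdkn1a at RC4 had a log2 ratio to NT of 2.00 in MB and -0.62 in MT cytoplasm. The others differ between AS and RC4 within an experiment. Within MB cytoplasm, Trp53 had 0.55 in AS and -1.09 in RC4, and Ccng1 had -0.63 in AS and 1.12 in RC4. Gadd45b had 1.56 in AS and -1.05 in RC4 of 4sU RNA, and 1.26 and -0.63 in Ft RNA. Trp53inp1 in total RNA of replicate 4 had -1.13 in AS and 1.57 in RC4.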

How the results depend on the processing

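Over all alternatives, 143 of 168 summary values and 1082 of 1195 single values were counted as the same. Another fold threshold or minimum of reads cannot move the ratio of a gene, so single values under those settings had to stay the same. The count of single values is therefore not a measure of how stable the results are. In total RNA the replicate block raised the genes called in AS from 0 to 3 (2 without replicate 4, added after seeing the data), and leaving out single libraries without the block gave 0. In input the libraries likewise share only a number. Their correlation of 0.576 is 1 value printed for both pairs, since with 2 libraries per group the deviations mirror each other. The block raised the count there from 0 to 4, with Btg2, Gadd45a, Gadd45b and Plk2 higher, beside Plk3, Gadd45g and 6 of 6 arsenite genes. Leaving out libraries without the block gave 0 to 0. For MT against MB (correlation 0.053) the block kept 8 calls, and leaving out libraries gave 7 to 9. TIA1 calls in NT cells became 0 without the block and 0 to 1 with a library left out, and in AS cells 0 without the block and 0 to 2; for AS minus NT it was 0 to 0. Without AS replicate 1, no gene of the whole table was called in AS cells.

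With a library left out, of the fitted log2 values given above those that changed sign were Plk2 in total RNA (-0.0466 to 1.03), Mdm2 in MT against MB (-0.59 to 0.12) and Mdm2 for TIA1 in AS minus NT (-0.12 to 0.66). With all untreated libraries as control, AS log2 ratios in total RNA became -0.0128 (close to 0) for Gadd45b and 0.82 for Trp53inp1. The genes past 2-fold were 5, 5 and 7 at RC8, RC12 and RC24, beside the counts over all genes given above. With a fold of 1.5 they were 5, 2 and 4, with 7 in 4sU AS and 6 in MT RC4. Over all genes, 1193 were past 1.5-fold higher and 1115 lower of 8064 at RC8. The counts were 843 and 842 of 8119 at RC12 and 641 and 695 of 7614 at RC24. They were 1424 and 1627 of 9185 in 4sU AS and 1604 and 1657 of 8936 in MT RC4. The median log2(Ft/4sU) was -1.35 in AS with a minimum of 50 reads and -1.46 in NT4h after the uridine adjustment. With over 20 reads per isoform 0 of 5 isoform tests passed, and with both isoforms at 10% or more 0 of 6. Btg2 was not among the genes tested under either setting, so its call was not retested there. With replicates summed 0 of 6 passed, Btg2 among those tested (Fisher's exact test, adjusted p = 0.113). Over all genes, DESeq2 called 24 in input (edgeR 0) and 19 for AS minus NT (edgeR 1, 7 without the low count filter, 5 from the last exon), and without the block TIA1 called 347 genes in NT and 95 in AS cells. Values of Sesn1 and Trp53inp1, with few reads, are limited by depth.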
